A study of Mus musculus with 6 samples.

Results

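The Notch pathway genes described here were 3 receptors (Notch1, Notch2 and Notch3), 3 ligands (Dll1, Dll3 and Jag1), 3 transcriptional targets (Hes1, Hes5 and Hey1) and the DNA-binding protein Rbpj. They were picked out by symbol, by a rule that uses no measured value, though with earlier results of these data known, and make up 10 of the 45583 gene rows of the table of read counts. All 10 had enough counts to be tested. The counts came from RNA sequencing of the cerebral cortex of 6 male mouse fetuses taken at GD15.5 (gestational day) per the labels and the methods, while elsewhere the study names a later age. All were labelled wild type, carried Sry and were of the Cyp19-EGFP strain, a reporter line for aromatase, the enzyme that makes estrogens. The dams of 3 fetuses had received bisphenol A (BPA, a plastic monomer with weak estrogenic action) from GD10.5 until GD14.5 at 50 µg/kg, and those of the other 3 fetuses had received peanut oil as vehicle (0 µg/kg). Each fetus gave 1 library. Litters are not given in the labels, so a p-value here measures only the spread between these fetuses, some of which may share a dam.

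Notch signaling passes between neighboring cells. A ligand of the Delta or Jagged type on a cell binds a Notch receptor on the next cell, proteases release the intracellular part of the receptor, and this fragment enters the nucleus, joins RBPJ and co-activators of the Mastermind family, and switches on genes of the Hes and Hey families. In the fetal cortex these repressors hold down proneural genes such as Neurog2 and keep radial glia, the stem cells of the ventricular zone, in the progenitor state, while differentiating neighbors present the ligands. The comparison of BPA with vehicle asked whether the transcripts of this pathway differed in the cortex after maternal exposure.

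Library totals ran from 3444601 to 7180835 counts, and 3 counts, the least treated as detectable here, corresponded to between 0.875 and 0.422 CPM (counts scaled to library size, after TMM normalization), counting error only. Libraries of the same group differed by more than sampling noise in all 6 pairs (chi-square over its degrees of freedom between 3.11 and 8.52). The labelled tissue was checked by markers. The summed level of 10 radial glia markers lay between 2645 and 2670 CPM in vehicle and between 2612 and 2676 CPM in BPA, and 9 cortical neuron markers summed to between 7683 and 7896 CPM and between 7487 and 7896 CPM. The neuron sum was mostly Tubb3, with means of 2333 CPM in vehicle and 2116 CPM in BPA, and Dcx, at 2317 and 2322 CPM. Both are general neuronal genes, so this sum does not tell cortical neurons from other neurons. Choroid plexus markers stood high in vehicle replicate 2 and BPA replicate 2. Their summed level was 12.8, 229 and 12 CPM in vehicle and 19.6, 365 and 14.6 CPM in BPA, and was mostly Ttr, at 195 and 308 CPM in these libraries.

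No member differed between BPA and vehicle beyond the replicate spread. By edgeR's quasi-likelihood test, 0 of 10 members passed a Benjamini-Hochberg adjusted p of 0.1, against 0 of 13741 genes tested (0%), and each member had an adjusted p of 1. At an unadjusted p under 0.05 there were 0 members, against 302 genes (2.20%), and DESeq2, limma-voom and edgeR's exact test also gave 0 members at both thresholds. The libraries of the groups overlapped for all 10 members, while they did not overlap for 928 genes (6.75%). The log2 fold change was below 0 for 8 of 10 members, against 49.5% of all genes tested, and its median was -0.052 over the members and 0.002 over all genes. Leaving out 1 library turned the direction for 7 of the 10, all except Dll3, Hes1 and Hes5. The 95% intervals of the members' fold changes reached from 0.606 to 1.31, so each interval lay within a 2-fold change in either direction. In bulk tissue, fewer cells that express a gene and less RNA per cell cannot be told apart.

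**Figure D1:**
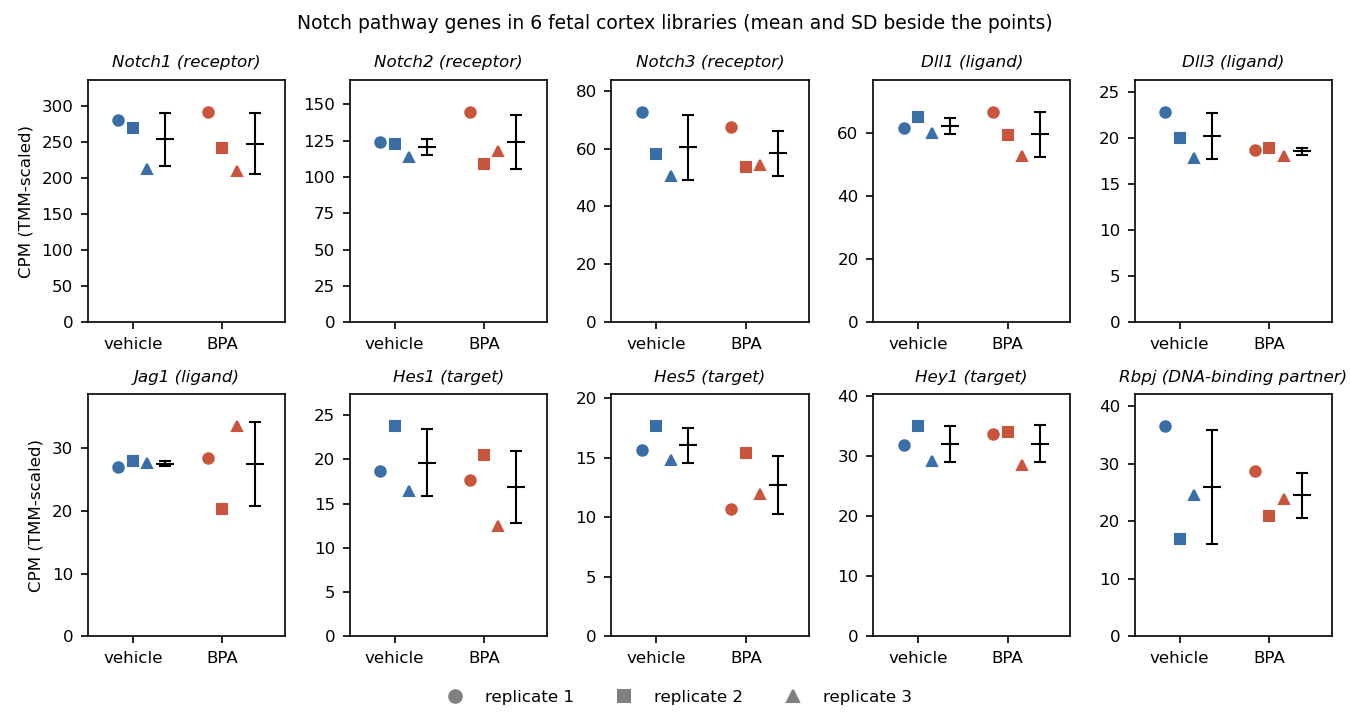
CPM (TMM-scaled) of each Notch pathway gene in the vehicle (blue) and BPA (red) libraries, with marker shapes for replicates 1 to 3 and the mean with SD beside the points. The groups overlap in all 10 panels, and Rbpj has the widest spread within vehicle, from 17.0 to 36.6 CPM.

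Among the receptors, Notch1 (ENSMUSG00000026923.15, GRCm38 chromosome 2, 26457903 to 26516663, minus strand), the main receptor of cortical progenitors, was at 280, 269 and 212 CPM in vehicle replicates 1, 2 and 3 and at 292, 242 and 209 CPM in BPA replicates 1, 2 and 3. The lowest library of each group was its replicate 3, and the BPA libraries both topped and undercut the vehicle range. For Notch1 this gave a log2 fold change of -0.03 ± 0.128 (SE), a 95% interval from -0.30 to 0.24 and, by edgeR, an unadjusted p = 0.802. Between 716 and 1910 counts lay behind each of these values.

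Notch2 (ENSMUSG00000027878.11, chromosome 3, 98013527 to 98150361, plus strand), a receptor also found on radial glia, was at 124, 123 and 114 CPM in vehicle and at 145, 109 and 118 CPM in BPA. The vehicle libraries lay inside the BPA range, and the coefficient of variation was 4.61% in vehicle and 15% in BPA. Notch2 was 1 of the 2 members with a log2 fold change above 0, at 0.05 (interval -0.19 to 0.29). Notch3 (ENSMUSG00000038146.8, chromosome 17, 32120820 to 32166852, minus strand), which is also the receptor of vascular mural cells, was at 72.8, 58.0 and 50.7 CPM in vehicle and at 67.4, 53.6 and 54.3 CPM in BPA. Its BPA libraries lay inside the vehicle range, and its log2 fold change was -0.05 (interval -0.35 to 0.25). Markers of mural cells and meninges summed to between 155 and 227 CPM in vehicle and between 157 and 201 CPM in BPA.

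Among the ligands, Dll1 (ENSMUSG00000014773.13, chromosome 17, 15367354 to 15376872, minus strand), a Delta ligand shown by newly forming neurons, was at 61.5, 64.9 and 59.9 CPM in vehicle and at 66.7, 59.3 and 52.5 CPM in BPA. The BPA range enclosed that of vehicle, and the log2 fold change was -0.05 (interval -0.30 to 0.19). Dll1 overlaps the long noncoding RNA A930024N18Rik on the opposite strand, which shares 16.1% of its 50-base words and had from 18 to 42 counts per library. The sources used here do not give whether the counting used strand, so reads of the overlap cannot be assigned to either gene.

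Dll3 (ENSMUSG00000003436.11, chromosome 7, 28293553 to 28302238, minus strand) is a divergent Delta protein that stays mostly inside the cell and dampens Notch signaling in the cell that makes it. It was at 22.9, 20.0 and 17.9 CPM in vehicle and at 18.7, 18.9 and 18.1 CPM in BPA, where the 3 libraries lay close together inside the lower part of the vehicle range. Its log2 fold change was -0.13 (interval -0.45 to 0.18, edgeR unadjusted p = 0.385). The BPA coefficient of variation of 2.16% was below what counting error alone gives at 62 to 119 counts, so this closeness is less than the counts can resolve.

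Jag1 (ENSMUSG00000027276.7, chromosome 2, 137081456 to 137116644, minus strand), the Jagged ligand, was at 27.1, 28.0 and 27.6 CPM in vehicle and at 28.4, 20.3 and 33.6 CPM in BPA. BPA replicate 2 was the lowest and BPA replicate 3 the highest of the 6 libraries. The group means were nearly equal, at 27.6 CPM ± 0.478 (SD, n = 3) and 27.4 CPM ± 6.67 (SD, n = 3), and the log2 fold change was -0.03 (interval -0.37 to 0.31). The coefficient of variation was 1.73% in vehicle and 24.3% in BPA, where counting error alone gives 7.66% and 8.62%. The difference in spread between the groups was not tested.

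Rbpj (ENSMUSG00000039191.12, chromosome 5, 53466152 to 53657362, plus strand), the DNA-binding partner of all Notch receptors and a repressor in their absence, varied most among the members. It was at 36.6, 17.0 and 24.5 CPM in vehicle and at 28.7, 21.0 and 23.9 CPM in BPA, so the BPA libraries lay inside a vehicle range of 2.15-fold. The vehicle coefficient of variation was 38.0%, against 7.88% from counting error. Rbpj had a log2 fold change of -0.08 (interval -0.55 to 0.39). Without vehicle replicate 1 it was 0.26 and without vehicle replicate 2 it was -0.32, so its direction turned with the library left out. Of the 50-base words of Rbpj, 10.6% also occur in transcripts of other genes. The pseudogene Rbpj-ps3, which has no row among the counts, holds 9.69%. Reads of these stretches cannot be assigned with certainty, and their part in the counts of Rbpj was not measured.

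Of the targets, Hes1 and Hes5 had the lowest minimum counts of the members. Hes1 (ENSMUSG00000022528.8, chromosome 16, 30064384 to 30067796, plus strand), a basic helix-loop-helix repressor that keeps progenitors undifferentiated, was at 18.7, 23.8 and 16.4 CPM in vehicle and at 17.7, 20.5 and 12.5 CPM in BPA. BPA replicate 3, the shallowest library, held the lowest value with 43 counts. Hes1 had a log2 fold change of -0.19 ± 0.188 (SE; interval -0.59 to 0.21, edgeR unadjusted p = 0.327). Hey1 (ENSMUSG00000040289.8, chromosome 3, 8663359 to 8667256, minus strand), a related repressor, was at 31.9, 35.1 and 29.2 CPM in vehicle and at 33.8, 34.0 and 28.6 CPM in BPA. Its means were 32.1 CPM ± 2.94 (SD, n = 3) and 32.1 CPM ± 3.05 (SD, n = 3), and its log2 fold change was 0.01 (interval -0.27 to 0.28).

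Hes5 (ENSMUSG00000048001.7, chromosome 4, 154960923 to 154962371, plus strand), the Hes repressor most closely tied to Notch activity in radial glia, had the lowest log2 fold change and the smallest p of the members, without passing a threshold. It was at 15.7, 17.7 and 14.8 CPM in vehicle and at 10.7, 15.4 and 12 CPM in BPA, from 41 to 126 counts per library. Both BPA replicate 1 and BPA replicate 3 were below every vehicle library, and BPA replicate 2 lay inside the vehicle range. Means and SDs over 3 libraries were 16.1 ± 1.50 CPM and 12.7 ± 2.46 CPM. Hes5 thus had a log2 fold change of -0.34 ± 0.180 (SE). Its 95% interval from -0.72 to 0.04 is a change between -39.4% and 2.91%, and edgeR gave an unadjusted p = 0.0770 and an adjusted p = 1. Over the libraries left out in turn the log2 fold change lay between -0.53, without BPA replicate 2 (unadjusted p = 0.0162), and -0.21, without BPA replicate 1 (unadjusted p = 0.305), and edgeR's adjusted p stayed between 0.966 and 1. Hes5 overlaps the transcript Gm20421 on the opposite strand, which shares 21.8% of its words and had from 0 to 4 counts, and with both summed the log2 fold change was -0.37 (edgeR unadjusted p = 0.0540, adjusted p = 1).

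Hes1, Hes5 and Hey1 were each highest in replicate 2 of both groups, as were 2109 genes (15.3% of those tested), and these were the libraries with high choroid plexus markers. With the summed choroid plexus markers as a covariate, the log2 fold change of Hes5 was -0.39 (edgeR unadjusted p = 0.0296, adjusted p = 1) and that of Hey1 was -0.0103. With this covariate 415 of 13741 genes had an edgeR unadjusted p under 0.05, against 302 without it. The part of choroid plexus tissue in the high target values of these libraries was not tested. Notch1, Dll1, Dll3, Hes1 and Hey1 were each lowest in replicate 3 of both groups, the library with the smallest total of its group, as were 1511 genes (11.0%).

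The sequences that Rbpj is known to bind have the core TGGGAA, and the stretches before the starts of the members were searched for it. The search was prompted by Hes5 being the member furthest from 0 and Rbpj the most variable, so it is not independent of these values. A link between matches and these values was not tested. RefSeq start sites on GRCm38.p6 gave windows of 250 bases before the start for 8 of 10 members (10 windows, none for Hes1 and Hey1), and the 6 letters were read on both strands, as TGGGAA or TTCCCA. Matches lay in 3 of the 10 windows, which belong to 2 of the 8 members, Hes5 and Rbpj. Of all 32851 windows of this length, 21.6% held a match and 2.77% held 2 or more. Positions count back from the start site, with -1 for the base before it, and mark the first base of the match. The matches are shown within 30 bases of the plus strand, 5′ to 3′, with the 6 letters in capitals.
Hes5 at -226, chr4:154960685-154960714: agggcgagcgcgTTCCCAcagcccggacat
Hes5 at -82, chr4:154960829-154960858: ggccgccgagtgTGGGAAcggccgcggcgc
Rbpj at -149, chr5:53590185-53590214: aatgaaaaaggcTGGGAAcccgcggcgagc
Rbpj at -65, chr5:53590269-53590298: gacgctcgcattTTCCCAggacccctcctc
The positions of Rbpj count from its start at 53590346, and the match at -65 is also that at -205 from a second RefSeq start at 53590486. A match says only that the letters are present, and no binding was measured in these libraries.

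Levels of different genes were compared as CPM per kilobase of merged exons. The order of the means over the 6 libraries was Notch1 at 17.6, Dll1 at 14.4, Notch2 at 11.3, Hes5 at 10.6, Hey1 at 9.83, Hes1 at 8.97, Notch3 at 7.35, Dll3 at 6.81, Jag1 at 4.72 and Rbpj at 1.98. Notch1 was first, Dll1 the second, Jag1 ninth and Rbpj last in every library. Among the genes between them, Notch2 was above Hes5 in only 2 of 6 libraries, and Hes5, Hey1, Hes1 and Notch3 each stood above the next gene in 5 of 6. The order of these genes was therefore not the same in every library. Notch1 stood at the 76.0th percentile of the level per length of all tested genes with a known length, and Rbpj at the 19.9th. Merged exons run past any single transcript for some genes, to 14.2 kb against 9.49 kb for Notch1 and to 12.8 kb against 5.49 kb for Rbpj. Per kilobase of the longest coding transcript, Notch1 (26.4) and Dll1 (17.0) kept the top places and Jag1 (4.90) and Rbpj (4.61) the last, while Hey1 (13.2) came next after Dll1.

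**Figure D2:**
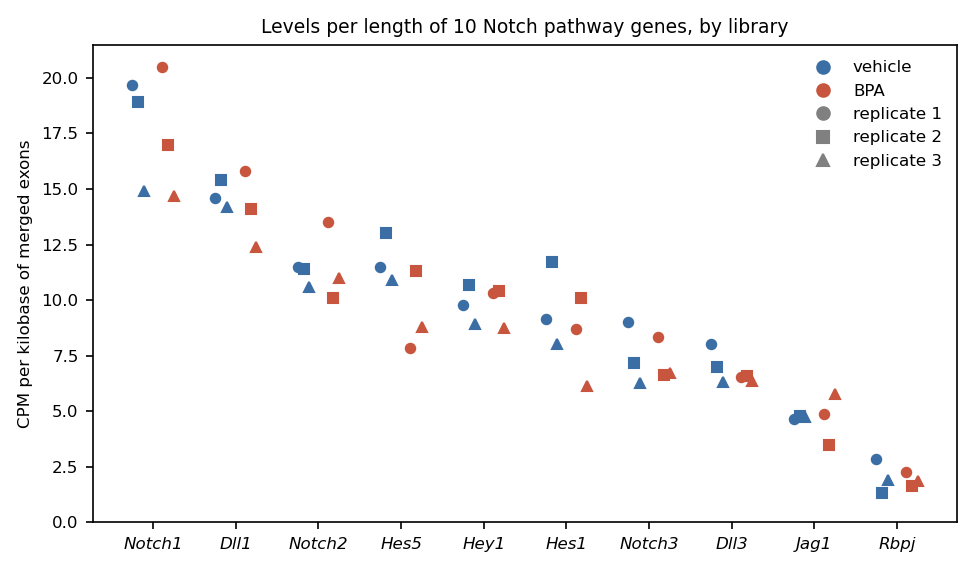
Level of the members as CPM per kilobase of merged exons, in order of the mean over 6 libraries, with vehicle in blue, BPA in red and marker shapes for replicates. Notch1 (14.7 to 20.5) lies above Dll1 (12.4 to 15.8) within each library, and Rbpj (1.34 to 2.87) is lowest.

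The make-up of each role was compared as the share of a gene in the summed level per kilobase of its role, which does not depend on library scaling. Notch1 held 49.0%, 50.5% and 47.0% of the receptor level in vehicle and 48.5%, 50.3% and 45.3% in BPA. These overlapped, with a difference of -0.745 percentage points (exact two-sided permutation p = 0.600). Dll3 held 29.5%, 25.8% and 24.9% of the ligand level in vehicle and 24.1%, 27.4% and 25.9% in BPA, which also overlapped, with a difference of -0.988 points (exact permutation p = 0.700). With 3 libraries against 3, the smallest p this test allows is 0.1.

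Of the target level, Hes5 held 37.9%, 36.7% and 39.0% in vehicle and 29.1%, 35.6% and 37.0% in BPA. The means were 37.9% ± 1.13 (SD, n = 3) and 33.9% ± 4.22 (SD, n = 3), and the exact permutation p was 0.200. Hey1 held 32.1%, 30.3% and 32.1% in vehicle and 38.5%, 32.7% and 37.0% in BPA. Every BPA library was above every vehicle library for Hey1, with a difference of 4.56 points at an exact permutation p of 0.1, the smallest possible, and 0.900 after adjustment over the 9 shares compared. The lowest BPA library was 32.7% and the highest vehicle library 32.1%. The shares of a role sum to a whole, so the Hey1 and Hes5 values are not separate observations. The summed level of the 3 targets was 30.5, 35.4 and 27.8 CPM per kilobase in vehicle and 26.9, 31.8 and 23.7 in BPA, and that of the receptors was 40.2, 37.4 and 31.7 in vehicle and 42.3, 33.7 and 32.4 in BPA. Both sums overlapped between the groups.

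**Figure D3:**
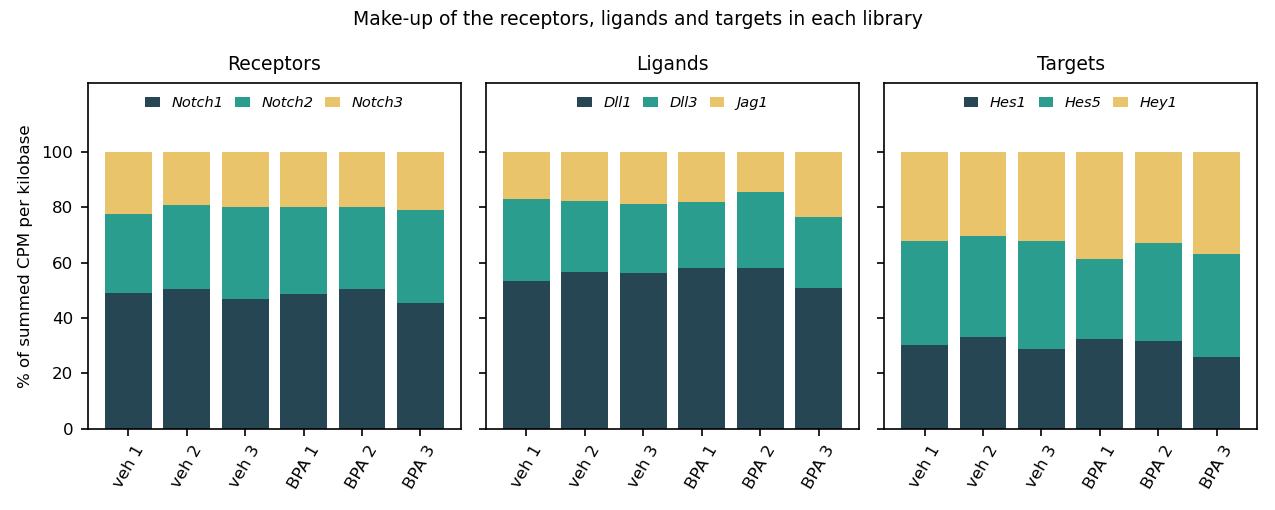
Percent of the summed CPM per kilobase held by each receptor, ligand and target in the 6 libraries (stacked bars from 0 to 100%). Notch1 fills between 45.3% and 50.5% of the receptor bars, and Hey1 between 30.3% and 32.1% of the target bars in vehicle and between 32.7% and 38.5% in BPA.

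The other genes of the pathway were taken from 7 lists with 72 genes, of which 64 were tested. By edgeR's quasi-likelihood test 0 passed the adjusted threshold, and 2 (3.12%) had an unadjusted p under 0.05, both lower in BPA, where 1.18% of all genes tested were lower and 1.02% higher at this p. The log2 fold change was below 0 for 37 of 64, with a median of -0.020. The groups did not overlap for 7 of them (10.9%), all lower in BPA, against 3.56% of all genes tested that were apart in this direction. For none of the 64 was every BPA library above every vehicle library, as it was for 3.19% of all genes. The lists were chosen with earlier results of these data known, so this direction is not independent evidence. Of the 8 genes without enough counts, Dlk1 and Hes2 were at 0 counts in every library, and Hes3, Hes7, Rbpjl, Gxylt2, Psenen and Atoh1 were too low to test.

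Other receptors and ligands were tested for 7 of 8 genes, with a median log2 fold change of -0.058. Dlk2, a Delta-like protein that acts on Notch without the usual receptor-binding domain, was at 17.4, 17.2 and 18.9 CPM in vehicle and at 12.6, 15 and 14.9 CPM in BPA. All BPA libraries of Dlk2 were lower, with a log2 fold change of -0.34 and an edgeR unadjusted p = 0.0477, adjusted p = 1. Dner, a neuronal transmembrane protein related to Delta, was at 316, 263 and 298 CPM in vehicle and at 236, 259 and 282 CPM in BPA, which overlapped (log2 fold change -0.18). Per kilobase of merged exons, Jag2 averaged 7.61, Dll4 1.75 and Notch4 1.41, so Jag2 lay above the 4.72 of Jag1. Dll4 and Notch4 are best known from endothelium, whose 8 markers summed to between 167 and 180 CPM in vehicle and between 163 and 178 CPM in BPA.

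Among enzymes that add sugars to the receptors, Poglut1, an O-glucosyltransferase, was at 47.8, 43.4 and 48.7 CPM in vehicle and at 39.1, 39.8 and 42.0 CPM in BPA, with a log2 fold change of -0.21. Xxylt1, a xylosyltransferase that lengthens the same sugar chain, was at 14.3, 12.7 and 12.6 CPM in vehicle and at 9.42, 12.5 and 9.63 CPM in BPA, with a log2 fold change of -0.32. Neither Poglut1 (unadjusted p = 0.0829) nor Xxylt1 (unadjusted p = 0.105) passed a threshold in edgeR's quasi-likelihood test, though the groups did not overlap for either. For Xxylt1 the highest BPA library (12.5 CPM) and the lowest vehicle library (12.6 CPM) nearly met.

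Genes of endocytosis and ubiquitin transfer, which control ligand and receptor turnover, had a median log2 fold change of 0.004 over 14 genes. Neurl1a, a ubiquitin ligase for ligands, averaged 24.7 ± 1.16 CPM in vehicle and 22.3 ± 0.666 CPM in BPA (SD, n = 3 each, here and for the genes that follow) without overlap, and Dtx4, a Deltex ubiquitin ligase, 88.3 ± 7.48 CPM and 80.1 ± 5.47 CPM with overlap. The proteases that process the receptor had a median of -0.001 over 9 genes. Adam10, the sheddase that cuts the receptor after ligand binding, averaged 171 ± 16.6 CPM in vehicle and 161 ± 6.80 CPM in BPA, which overlapped between the groups.

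Nuclear cofactors had a log2 fold change below 0 for 13 of 16 genes tested, with a median of -0.031 and none at an unadjusted p under 0.05. Maml3, a Mastermind co-activator, averaged 40.7 ± 2.74 CPM in vehicle and 38.1 ± 0.606 CPM in BPA, and Snw1, which joins the RBPJ complex, was at 44.2 CPM ± 6.10 and 40.8 CPM ± 3.29. The list of other targets and Hes and Hey relatives had 4 genes tested. Hes6, a Hes protein that promotes differentiation and is listed by family, was at 92.4 CPM ± 4.52 and 86.2 CPM ± 0.843. Nrarp, a feedback inhibitor of Notch, was at 15.8 CPM ± 2.15 and 14.7 CPM ± 2.18. Maml3 and Hes6 did not overlap between the groups, at log2 fold changes of -0.10 each, while Snw1 and Nrarp did. Heyl, a further target, averaged 1.83 CPM per kilobase of merged exons, below each of the 3 member targets.

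The list of proneural and related genes, some of which Hes and Hey proteins repress, had a median log2 fold change of 0.077 over 7 genes tested. The log2 fold change was above 0 for 5 of these and below 0 for 2. By edgeR's quasi-likelihood test 1 of the 7 had an unadjusted p under 0.05, against 2.20% of all genes tested. That gene was lower in BPA, without overlap of the groups. Neurog2, the proneural factor of dorsal progenitors, was at 109, 156 and 118 CPM in vehicle and at 158, 147 and 127 CPM in BPA, which overlapped (log2 fold change 0.17, edgeR unadjusted p = 0.201).

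**Figure D4:**
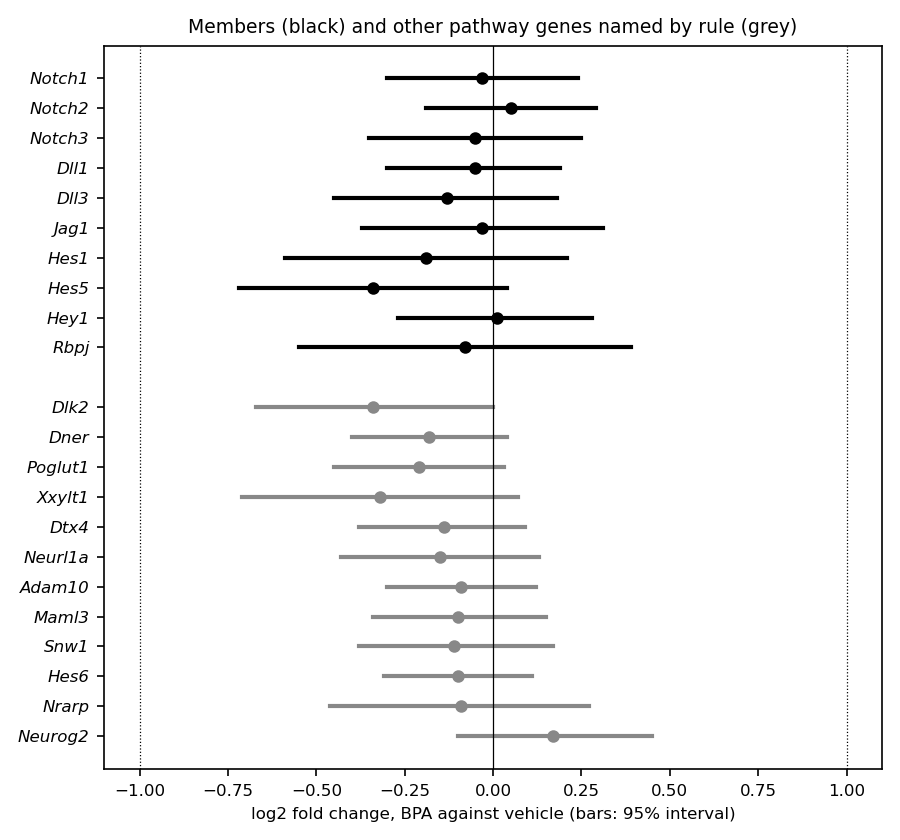
Log2 fold change of BPA against vehicle with its 95% interval for the 10 members (black) and for the other pathway genes named here (grey, chosen by their small p within a list). Dotted lines mark a 2-fold change in either direction, and the intervals of all members cross 0 and stay inside these lines.

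Markers of the ventral telencephalon had lower values in BPA. Their summed level was between 1017 and 1164 CPM in vehicle and between 888 and 968 CPM in BPA, without overlap, and the log2 fold change was below 0 for all 11 of them. The highest means of the list were those of Dlx1, at 364 CPM in vehicle and 313 CPM in BPA, and Gad2, at 171 and 155 CPM. Which cells these transcripts came from was not tested, so the sum is not a measure of ventral tissue alone. Of the 11, 5 had an unadjusted p under 0.05 in edgeR's quasi-likelihood test, all lower, against 1.18% of all genes tested. The groups did not overlap for 8 of the 11, all lower, against 3.56% of all genes tested. Nkx2-1, which defines the medial ganglionic eminence, averaged 35.9 ± 8.79 CPM in vehicle and 14.8 ± 5.48 CPM in BPA, and none of the 11 passed the adjusted threshold. This list was written when the values of some of its genes in these libraries were known, so its direction is not independent evidence. Dorsal pallium markers summed to between 2287 and 2984 CPM in vehicle and between 2431 and 2826 CPM in BPA. The part of ventral tissue in the Hes5 values was not tested.

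**Figure D5:**
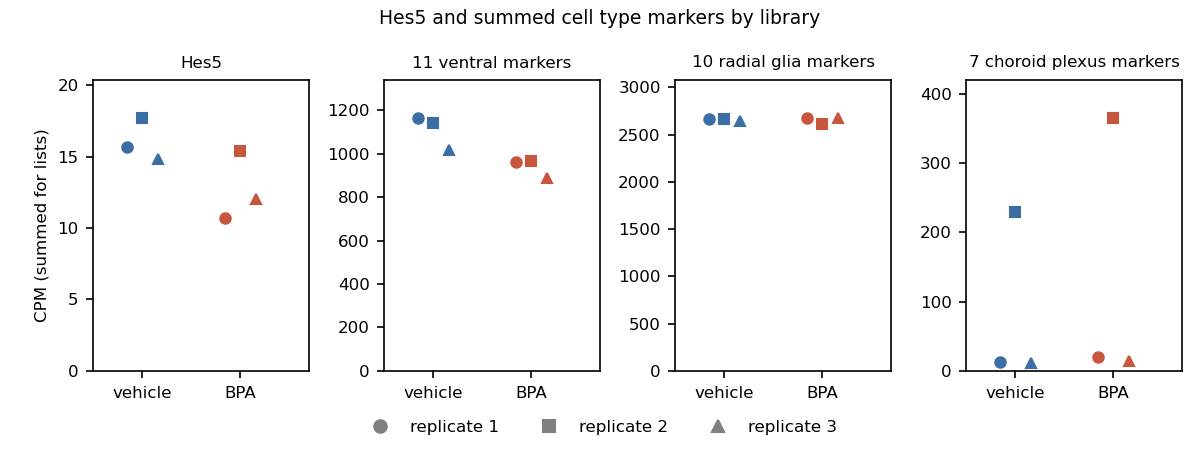
CPM of Hes5 and summed CPM of ventral telencephalon, radial glia and choroid plexus markers in the vehicle (blue) and BPA (red) libraries. The ventral sum does not overlap between the groups, Hes5 and the radial glia sum do, and choroid plexus markers are high in replicate 2 of each group (229 and 365 CPM).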

How the data were processed

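According to the study's methods, strand-specific libraries of total RNA were read from a single end for 50 bases, aligned to GRCm38 and summarized with featureCounts on GENCODE models, and the authors deposited raw counts per gene symbol. The submitters' processing notes name TopHat2 2.0.14, StringTie 1.2.4 and edgeR 3.14.2. The strand setting and the handling of reads with several alignments are not given in the sources used here. Groups came from the labels, and replicates were numbered in accession order, so a number shared by both groups does not mark a known pair.

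Counts were analysed in R 4.3.3 with edgeR 4.0.16 (filterByExpr at a minimum count of 10 and total of 15, TMM scaling, quasi-likelihood test, Benjamini-Hochberg adjustment over 13741 genes, threshold 0.1), and the scripts were tested on simulated data. TMM factors were between 0.99 and 1.01, and the biological coefficient of variation was 0.106. Shares were tested by exact permutation over the libraries. Lengths and positions came from GENCODE M21 and start sites from RefSeq. The genes named were all members, the 2 with the smallest p at 1 CPM or more in each of 7 lists, any past the threshold, and Notch4, Dll4, Jag2 and Heyl as levels. Of the genes this rule took, 2 are not reported here. Members and lists were chosen with earlier results of these data known. Alternatives were DESeq2 1.42.0, limma-voom (limma 3.58.1), the exact test, other scalings and filters, other lengths, and omission of each library. Thinning to the smallest total, sums with antisense transcripts, the choroid plexus covariate, transcript lengths and the search for TGGGAA were chosen after seeing the data.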

Additional observations from a re-analysis of the deposited data

How the results depend on the processing

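Each member was taken through 16 alternative settings, or 17 for Dll1 and Hes5, which gave 162 member results. No member passed the adjusted threshold in any of them (smallest adjusted p 0.959), and 144 of the 162 kept the direction of the member's log2 fold change. Across all genes, the count past the adjusted threshold was 3 with DESeq2, 2 with the exact test, 19 without a filter, 2 with the choroid plexus covariate and between 0 and 1 with a library left out. The count at an unadjusted p under 0.05 was 126 with DESeq2, 620 without a filter, 162 at 10 CPM or more in 3 libraries, and between 194 (without vehicle replicate 3 or BPA replicate 1) and 708 (without vehicle replicate 2), with 563 without BPA replicate 2. With the choroid plexus covariate the count was 415, against 302 in the main setting. At that p there was 1 member, Hes5, without BPA replicate 2 (range 0 to 1) and with the covariate. Of the other pathway genes there was 1 with DESeq2, the exact test, library size alone, no filter, the 10 CPM filter or thinning, and between 0 (without BPA replicate 1 or BPA replicate 3) and 5 (without vehicle replicate 2) with a library left out. Leaving out a library moved log2 fold changes across 0 for Notch1 (-0.17 to 0.0717), Notch2 (-0.0816 to 0.14), Notch3 (-0.17 to 0.11), Dll1 (-0.15 to 0.0200), Jag1 (-0.18 to 0.15), Hey1 (-0.0529 to 0.0815), Rbpj (-0.32 to 0.26) and Nrarp (-0.21 to 0.0314). Thinning, which rested on 1 random draw of the counts, reversed Dll1 (0.0182), Jag1 (0.27) and Rbpj (0.0391). The covariate reversed Hey1 (-0.0103) and Rbpj (0.0225). The cause was not tested.

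The difference in share over libraries left out was between -1.88 and 0.614 points for Notch1, between -1.89 and 0.399 for Dll3 and between -5.48 (without BPA replicate 3) and -1.52 (without BPA replicate 1) for Hes5. From counts without division by length, the Hes5 share was lower in every BPA library (-3.20 points, exact permutation p = 0.1). Summing copies that share 10% or more of 50-base words was not run, since no copy analysed here reached that share. No paired analysis was run, since the labels give no replicate numbers and name no pairs. The sample titles carry running numbers, in which vehicle and BPA libraries take turns in the order of the replicates used here. Whether these numbers stand for pairs or an order of processing is not given. Of the members, Rbpj had the largest standard error (0.220), followed by Hes1 (0.188) and Hes5 (0.180), and Hes5 had as few as 41 counts in the shallowest library.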
